A study of Mus musculus with 24 samples.

Results

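Mouse embryonic stem cells (ESCs, E14 line) homozygous for a point mutation in Polr2a, the gene of the largest subunit of RNA polymerase II (RNAPII), are called slow/slow because the mutant enzyme elongates more slowly than the wild type. The comparison described here was between 3 RNA-seq libraries of slow/slow cells purified for PSA-NCAM at day 10 of neural differentiation and 3 libraries of slow/slow neural progenitor cells (NPCs) from day 7, which is 6 of the 24 libraries in the study. It asked which genes changed between these stages when both stages carried slow RNAPII. The same 2 stages of wild-type (WT) cells, with 3 libraries each, served to test where the change differed between genotypes. WT libraries were also set beside single slow/slow libraries. All 24 libraries entered the main model, which set the filter, scaling and spread behind its calls.

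Several features of the samples limit what the comparison can separate. NPCs were collected as whole cultures, whereas the day 10 cells were detached with accutase and purified on beads that bind PSA-NCAM, so the days in culture and the purification cannot be told apart. Slow/slow cells were plated more densely than WT cells. They descended from ESCs made by sequential targeting of the 2 alleles, so a difference between genotypes is also a difference between cell lines. Replicates were independent differentiation experiments. In such bulk RNA, fewer cells of a type and less RNA per cell cannot be told apart.

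PSA-NCAM is the neural cell adhesion molecule (NCAM, product of Ncam1) carrying polysialic acid, a long negatively charged sugar chain. The enzymes St8sia2 and St8sia4 build this chain, which weakens adhesion and lets young neurons and their precursors migrate and extend processes. NPCs are dividing neuroepithelial cells that give rise to neurons as Notch signalling falls and proneural transcription factors such as Neurog2 act. RNAPII speed is thought to matter most for long genes, since the time needed to make a transcript grows with the length of the gene.

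Slow/slow NPC libraries held 77285813, 41310385 and 39817209 gene counts and the slow/slow PSA-NCAM+ libraries 49207494, 97131964 and 92749768. Values below are counts-per-million (CPM) after TMM scaling, and changes are log2 of the PSA-NCAM+ level over the NPC level from edgeR, with the standard error (SE) and the false discovery rate (FDR, the Benjamini-Hochberg adjusted p). A gene was said to rise or fall when its FDR was under 0.05 in the model of all 24 libraries. Unless replicates are named, values of 3 libraries are given in the order of replicates 1, 2 and 3.

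The library labelled replicate 1 of the slow/slow PSA-NCAM+ cells stood apart from replicates 2 and 3. The genes described here were the 13747 with a mean above 1 CPM over all 24 libraries. Of these, 14.0% differed by 2-fold or more between replicate 1 and the mean of replicates 2 and 3 (on CPM + 0.5). In replicate 1, 1223 were higher and 700 lower. Between replicates 2 and 3 themselves, 0.21% of genes differed by 2-fold. Replicate 1 of the WT PSA-NCAM+ cells also stood apart, though in fewer genes, 6.4%. Replicate 1 deviated in a like way in both genotypes. Slow/slow and WT PSA-NCAM+ libraries of the same number had correlated deviations from their group means, with r = 0.59, 0.60 and 0.46 for numbers 1, 2 and 3. These values are over 13747 genes, which are not independent replicates. Unlike numbers 2 and 3 correlated too, with 0.51 for WT 2 and slow/slow 3 and 0.29 for WT 3 and slow/slow 2. Since deviations from a mean of 3 libraries cancel out, the values for numbers 2 and 3 cannot show pairing. The change of slow/slow replicate 1 from the NPC mean was most like that of WT replicate 1 (r = 0.66, against 0.42 and 0.48 for WT replicates 2 and 3).

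The same library held RNA from Y-linked genes that the other slow/slow libraries lacked. Ddx3y, a Y-linked RNA helicase, was at 30.9 CPM in replicate 1 and at 0.171 and 0.12 CPM in replicates 2 and 3, and the other 11 slow/slow libraries of all stages ranged from 0.12 to 0.588 CPM. WT PSA-NCAM+ libraries held 30.6 to 66.7 CPM. Eif2s3y, a Y-linked translation initiation factor, was at 19.4, 0.32 and 0.229 CPM, and Uty, a Y-linked histone demethylase, at 12.4, 0.096 and 0.0437 CPM. Replicate 1 thus reached 68.3%, 37.6% and 72.8% of the WT PSA-NCAM+ mean for the 3 genes.

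Other genes that separated the genotypes at the remaining 3 stages did not all follow. These separators and the Y-linked genes were chosen after the data had been seen. The rule was applied within each of the ESC, NPC and neuron stages. Every library of the higher genotype had at least 1 CPM and at least 3-fold the level of every library of the other genotype at that stage. Ace, the angiotensin-converting enzyme, was at 0.694, 0.661 and 0.732 CPM in the 3 slow/slow PSA-NCAM+ libraries and at 4.97 to 5.74 CPM in WT. Calml4, a calmodulin-like protein, was at 0.163, 0.128 and 0.131 CPM against 1.03 to 1.77 CPM in WT. Lefty2, a secreted Nodal inhibitor, was at 33.7, 40.5 and 34.5 CPM against 7.3 to 8.24 CPM in WT. For these 3 genes replicate 1 sat with the other slow/slow libraries. Of the Y-linked genes, Ddx3y was within the WT PSA-NCAM+ range in replicate 1. Uty, at 12.4 CPM, was below the WT range of 13.56 to 20.73 CPM, and Eif2s3y, at 19.4 CPM, lay between the groups, with WT at 44.96 to 60.25 CPM. Mest, an imprinted gene, was at 268 CPM in replicate 1, above the WT range of 43 to 173 CPM and far above the 6.48 and 7.84 CPM of replicates 2 and 3. Hmcn2, a basement membrane hemicentin, and Olig3, a dorsal neural tube factor, lay between the groups. Hmcn2 was at 2.98 CPM in replicate 1, 0.842 and 0.677 CPM in replicates 2 and 3, and 8.83 to 12.1 CPM in WT. Olig3 was at 9.7 CPM in replicate 1, 48.3 and 51.3 CPM in replicates 2 and 3, and 0.393 to 1.01 CPM in WT. The identity of this library is therefore in doubt, and replicate 1 below means the library so labelled, which is part of every group of 3 slow/slow PSA-NCAM+ libraries. What set it apart was not tested, and calls and counts that moved most without it are given both ways.

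**Figure D1:**
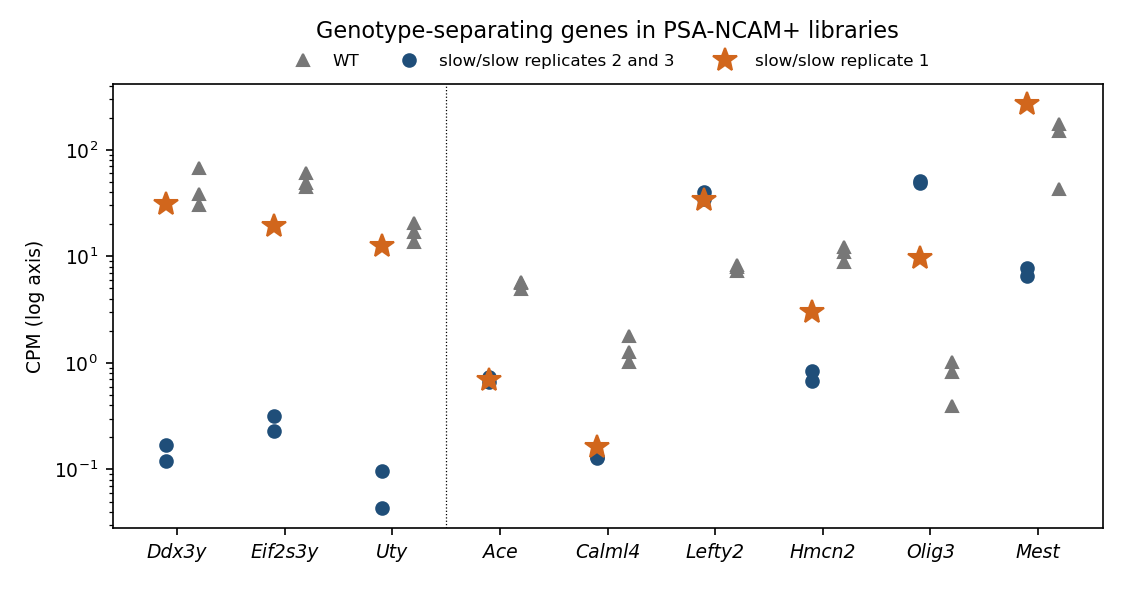
CPM on a log axis of 3 Y-linked genes and 6 other genes that separated the genotypes, in each PSA-NCAM+ library (circles, slow/slow replicates 2 and 3; star, slow/slow replicate 1; triangles, WT). Replicate 1 lay at 30.9 CPM for Ddx3y, within the WT range of 30.6 to 66.7 CPM, and at 0.694 CPM for Ace, next to the other slow/slow libraries.

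In the model of all libraries, 7033 of 16627 genes tested changed between the stages (42.3%). Of these, 3745 were higher in PSA-NCAM+ cells (22.5% of genes tested) and 3288 lower (19.8%). Without replicate 1 the count was nearly the same, 7060 of 16800 genes (42.0%), but the genes were partly others, since 5481 genes had the same call in both fits, which was 77.9% of the first set and 77.8% of the 7047 genes that the second called among those tested in the first. A fit of the 6 slow/slow libraries alone, which took its spread from them only, called 2525 genes (16.6%), 9.76% of genes higher and 6.85% lower, and 1121 with the replicate number as a block. Leaving replicate 1 out of that small fit raised the count to 7587 (48.8%). Calls shared by the main model, the fit without replicate 1 and the 6-library fit numbered 1475 higher and 1025 lower. The upper-quartile scaling turned the split from 3745 higher and 3288 lower to 3227 higher and 4150 lower. The counts of list members below are read against 22.5% higher and 19.8% lower in the model of all libraries, 23.2% and 18.8% without replicate 1, and 9.76% and 6.85% in the 6-library fit.

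RNA of Ncam1, St8sia2 and St8sia4 was higher in the purified cells, whereas the sugar-bearing protein that their label names was not measured here. St8sia2 (chr7:73939119-74013690, GRCm38) measured 5.52, 6.85 and 8.4 CPM in NPCs and 12.8, 26.5 and 28.7 CPM in PSA-NCAM+ cells. Every purified library was above every NPC library, with replicate 1 the lowest of the purified ones, and the rise was 1.73 ± 0.22 (SE, n = 3 per group, FDR 5.03e-06). St8sia4 (chr1:95587682-95667571) was at 0.401, 1 and 1.21 CPM in NPCs and at 3.04, 3.35 and 4.12 CPM in PSA-NCAM+ cells, a rise of 2.09 ± 0.32 (FDR 4.94e-05). Ncam1 (chr9:49502136-49798925), which carries the sugar, went from 14.1, 15.9 and 16.9 CPM to 20.9, 31.6 and 29.1 CPM, a smaller rise of 0.80 ± 0.12 (FDR 3.55e-05). Of 12 genes for NCAM, related adhesion molecules and polysialic acid, 8 rose and 0 fell, against the background of 22.5% and 19.8% given above, and 4 rose in the 6-library fit. Nrcam, a neuronal adhesion molecule, rose by 1.00, although replicate 1, at 15.6 CPM, was no higher than the NPCs at 13.2, 15.5 and 17.2 CPM while replicates 2 and 3 reached 37.4 and 38.3 CPM. Over this list the median change from the NPC mean was -0.05 in replicate 1, 0.82 in replicate 2 and 0.90 in replicate 3.

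**Figure D2:**
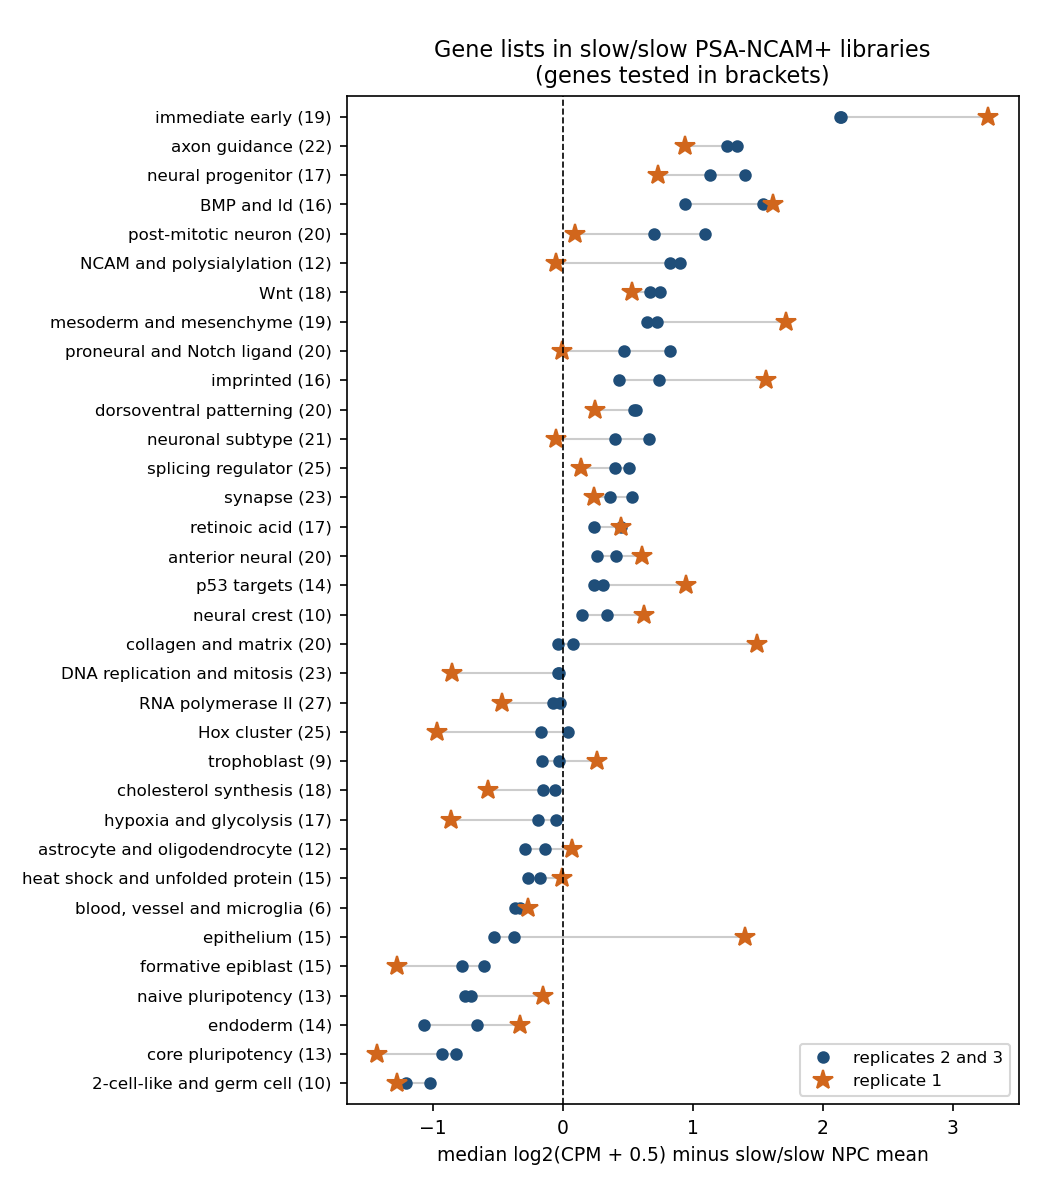
Median over each gene list of log2(CPM + 0.5) in 1 PSA-NCAM+ library minus the mean of the 3 slow/slow NPC libraries, for replicate 1 (star) and replicates 2 and 3 (circles); the dashed line marks 0. Immediate early genes lay at 3.27, 2.14 and 2.13 in the 3 replicates, whereas the epithelial list lay at 1.40 in replicate 1 and at -0.38 and -0.53 in the other two.

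Immediate early genes had the largest median change of the 34 gene lists. These genes, many of them transcription factors such as Fos and Egr1, are transcribed from preformed regulators within a short time of a growth factor, synaptic or stress signal. All 19 on the list rose, and in each of them every PSA-NCAM+ library exceeded every NPC library, where 21.6% of all genes tested were so separated in this direction. Their median change was 3.18 with replicate 1 and 2.12 without, against 0.00 over all genes tested in either fit. Without replicate 1, 18 still rose, of 23.2% of all genes, and 17 rose in the 6-library fit, where 9.76% of all genes did.

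Fos (chr12:85473890-85477273), the AP-1 subunit, was at 6.78, 4.3 and 6.48 CPM in NPCs and at 603, 464 and 731 CPM in PSA-NCAM+ cells. The 2 groups lay far apart and replicate 1 fell between the other purified libraries, giving a change of 6.67 ± 0.18 (FDR 1.71e-15). Fosb, another AP-1 subunit, was at 0.725, 0.692 and 0.937 CPM in NPCs and at 367, 239 and 233 CPM in PSA-NCAM+ cells, a change of 8.49 ± 0.42 (FDR 3.94e-11). Egr1, a zinc finger factor, went from 28.1, 20.4 and 27.8 CPM to 339, 461 and 727 CPM (4.32 ± 0.25). Its relatives Egr3 and Egr4 rose by 7.30 and 6.46, from 0.143 to 0.246 CPM and from 0.123 to 0.215 CPM in NPCs. For Nr4a1, an orphan nuclear receptor, the NPC libraries were close together at 16.5, 15.9 and 17 CPM, and the PSA-NCAM+ libraries stood at 225, 148 and 120 CPM (3.31 ± 0.21, FDR 2.51e-09). Npas4, known as an activity-induced factor of neurons, stood at 0.427, 0.263 and 0.419 CPM and then at 28, 22.9 and 9.63 CPM (5.74 ± 0.56). Some members were higher in replicate 1 than in the others. Ptgs2, the inducible cyclooxygenase, was at 52.4 CPM there and at 15.8 and 6.7 CPM in replicates 2 and 3, and Dusp1, a phosphatase that switches off MAP kinases, was at 307 CPM against 129 and 127 CPM. Exons of Dusp1 overlap Ergic1, and those of Junb overlap Prdx2, on the opposite strand, and whether the counting used strand is not given, so these 2 genes are uncertain.

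**Figure D3:**
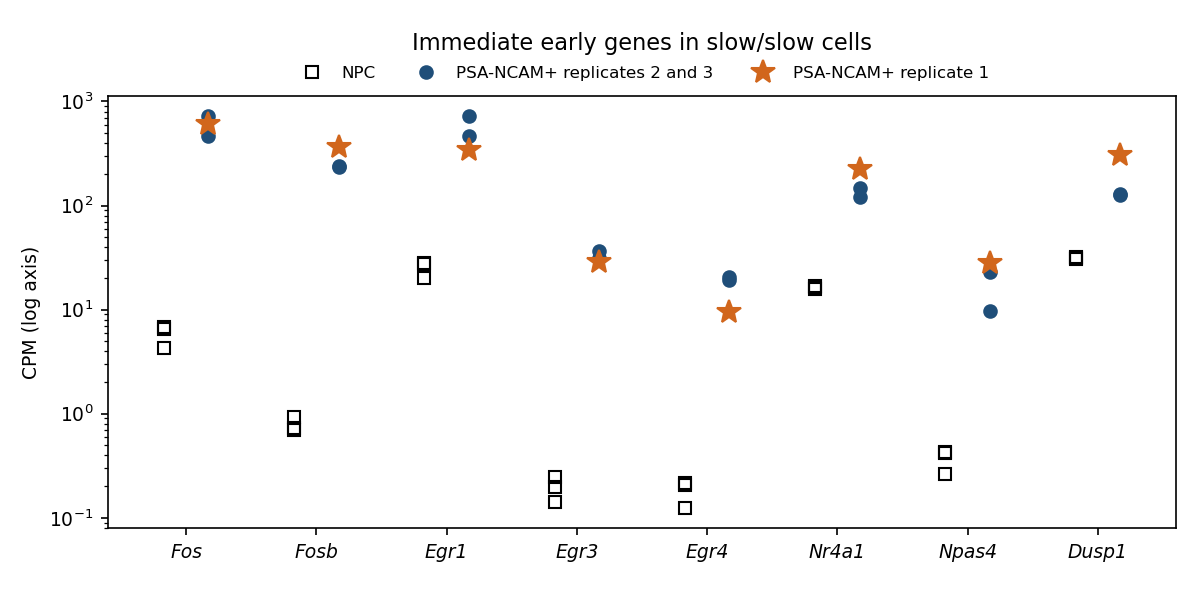
CPM on a log axis of 8 immediate early genes in the slow/slow NPC libraries (open squares) and PSA-NCAM+ libraries (star, replicate 1; circles, replicates 2 and 3). No gene has overlapping groups; Fosb went from 0.692 to 0.937 CPM in NPCs to 233 to 367 CPM in PSA-NCAM+ cells.

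The promoters of these genes are shown because 19 members moved together. Of the 14 with a promoter window in RefSeq (GRCm38.p6), 9 held TGACG, the core of the cAMP response element, on either strand of the 250 bases before a start, which is 64.3%, against 19.8% of 27025 genes with a window. A gene with several starts counted when any of its windows held the motif. Egr2, with 5 windows, counted only by a window other than the first listed. Jun, Jund, Ier3, Zfp36 and Klf6 rose too but had no match in any window. The 27025 genes were neither limited to those tested nor matched for base composition. The windows shown were picked from genes with a match. Here the motif is in capitals, and its reverse complement CGTCA is marked in the same way. Windows are those of Fos at chr12:85473640-85473889 on the plus strand, Nr4a1 at chr15:101266596-101266845 on the plus strand and Dusp1 at chr17:26508473-26508722 on the minus strand, each read 5′ to 3′ towards the gene:
Fos: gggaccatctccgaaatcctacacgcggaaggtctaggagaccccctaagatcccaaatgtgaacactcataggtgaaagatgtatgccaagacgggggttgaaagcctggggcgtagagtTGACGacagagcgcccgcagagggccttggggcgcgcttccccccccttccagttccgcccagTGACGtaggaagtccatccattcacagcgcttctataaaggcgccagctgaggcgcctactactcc
Nr4a1: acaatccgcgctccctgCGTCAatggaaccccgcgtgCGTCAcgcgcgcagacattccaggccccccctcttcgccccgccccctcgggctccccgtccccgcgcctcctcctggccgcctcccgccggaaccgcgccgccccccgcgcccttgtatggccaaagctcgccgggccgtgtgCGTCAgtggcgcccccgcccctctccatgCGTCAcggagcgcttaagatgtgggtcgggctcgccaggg
Dusp1: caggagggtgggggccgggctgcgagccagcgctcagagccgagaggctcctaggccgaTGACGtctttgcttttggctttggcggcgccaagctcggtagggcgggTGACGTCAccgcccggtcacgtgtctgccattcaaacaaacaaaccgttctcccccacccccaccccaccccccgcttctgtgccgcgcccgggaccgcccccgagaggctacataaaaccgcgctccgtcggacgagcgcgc
A match describes these letters only, and no binding was measured. The 3 windows held 2, 4 and 3 matches, of which the paired Dusp1 matches read as the palindrome TGACGTCA.

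BMP signalling genes and the Id family had the next largest median on the rising side with replicate 1. Id proteins keep proneural factors inactive, and the Id genes are direct targets of bone morphogenetic protein (BMP) signals. Of 16 genes 14 rose and 1 fell, with a median change of 1.66 (1.48 without replicate 1, when that of axon guidance genes was 1.51), and 12 of them rose in the 6-library fit. Id1 was at 22.2, 18.6 and 25.2 CPM in NPCs and at 149, 99.8 and 138 CPM in PSA-NCAM+ cells, well separated (2.55 ± 0.18, FDR 1.06e-08). Id2 rose by 1.61 and Id3 by 2.63. Id4 (chr13:48261228-48266026) went from 1.76, 2.36 and 2.66 CPM to 18.9, 17.1 and 15.3 CPM, with the 3 purified libraries close together (2.94 ± 0.20, FDR 3.48e-09). Nog, a secreted BMP antagonist, rose from 1.51, 1.29 and 1.48 CPM to 31.4, 9.84 and 7.05 CPM, and the ligand gene Bmp4 from 6.13, 4.22 and 5.74 CPM to 74.4, 17.7 and 14.8 CPM. Both were highest in replicate 1, and without it the rises were 2.58 (FDR 1.46e-09) and 1.61 (FDR 4.17e-07), compared with 3.48 and 2.72 with it. Bmp4 lost the call in the 6-library fit with the replicate block (FDR 0.0544). Exons of Bmp4 overlap Gm15217 on the other strand.

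Of 18 Wnt genes 12 rose and 2 fell, but 4 rose and 1 fell in the 6-library fit. Among the ligands, Wnt5a, which signals mainly without beta-catenin, went from 1.67, 1.17 and 2 CPM to 6.51, 5.46 and 5.7 CPM (1.87 ± 0.18, FDR 2.74e-07). Wnt1, a midbrain and dorsal ligand, was at 18.3 CPM in replicate 1 and at 2.62 and 2.99 CPM in the others, from 0.828, 1.05 and 1.23 CPM in NPCs. The rise was 2.94 with replicate 1 and 1.48 without. Lef1 and Dkk1 went the other way. Lef1, a nuclear effector of Wnt signalling, fell from 69, 70.4 and 74.5 CPM to 8, 45.9 and 37.7 CPM, by 1.22 on the log2 scale with replicate 1 (FDR 0.013) and by 0.75 without (FDR 0.0055), and Dkk1, a secreted Wnt inhibitor, fell by 0.82.

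Axon guidance genes rose almost without exception. These ligands and receptors steer growth cones and migrating cells. Of 22 genes tested 20 rose and 0 fell, with a median of 1.46, and all 22 rose without replicate 1 and 16 in the 6-library fit. Robo2, a receptor of Slit repellents, went from 5.19, 8.21 and 9.07 CPM to 19.5, 29 and 27.8 CPM (1.78 ± 0.17, FDR 2.15e-07). Its ligand gene Slit2 rose from 8.81, 9.59 and 10.2 CPM to 50.3, 27.4 and 27.2 CPM, highest in replicate 1 (1.87 ± 0.20). Efnb2, an ephrin ligand, was even within each stage, at 128, 123 and 126 CPM in NPCs and 234, 226 and 223 CPM in PSA-NCAM+ cells (0.86 ± 0.07, FDR 5.32e-08).

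Neural progenitor genes rose without a fall, 13 of 17, with a median of 1.19, and 8 rose in the 6-library fit. Nes, which encodes the intermediate filament nestin, went from 83.6, 80.5 and 115 CPM to 230, 259 and 267 CPM (1.44 ± 0.13, FDR 1.64e-07), and Vim, encoding vimentin, rose by 1.74. Hes5 (chr4:154960923-154962371), a Notch target that keeps progenitors undifferentiated, went from 0.647, 1.24 and 1.65 CPM to 7.19, 10.5 and 11 CPM. No library of one stage reached the other (3.07 ± 0.26, FDR 5.72e-08). Sox9, a glial and neural stem cell factor, rose by 2.71. Fabp7, a lipid binding protein of radial glia, was at 3.53, 5.8 and 7.74 CPM in NPCs, at 3.63 CPM in replicate 1 and at 25.7 and 43.8 CPM in replicates 2 and 3. For Sox2 and Pax6, which mark neuroepithelium, the groups overlapped, with changes of 0.05 (FDR 0.695) and 0.08 (FDR 0.80).

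Most genes of post-mitotic neurons were higher in replicates 2 and 3 than in replicate 1, whereas the proneural genes were mixed. Of 20 proneural and Notch ligand genes 10 rose and 1 fell, and of 20 genes of post-mitotic neurons 12 rose and 0 fell. Without replicate 1 these became 13 and 2, and 17 and 0, and in the 6-library fit 6 and 5 rose and 0 fell. The proneural list had median changes from the NPC mean of -0.01, 0.47 and 0.82 in replicates 1, 2 and 3, but its summed level was highest in replicate 1, at 766 CPM against 448 and 544 CPM in replicates 2 and 3 and 274 to 294 CPM in NPCs. Median changes of the neuronal list from the NPC mean were 0.09, 0.70 and 1.09 in replicates 1, 2 and 3. Dcx (chrX:143855842-143933311), the microtubule protein of migrating neuroblasts, was at 1.15, 3.65 and 4.02 CPM in NPCs and at 3.23, 15.2 and 30.4 CPM in PSA-NCAM+ cells. Replicate 1 lay inside the NPC range and the other 2 above it. Its change was 2.55 ± 0.53 (FDR 0.000734) with replicate 1 and 3.07 (FDR 3.43e-07) without, and the 6-library fit did not call it (FDR 0.0893). Each purified library was above the NPC library of the same number, and the 6-library fit with the replicate block called it (2.19, FDR 0.0376). The data do not show that libraries numbered 2 and 3 are paired.

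Tubb3, the neuronal tubulin, was at 87.3, 97.2 and 104 CPM in NPCs and at 42.8, 131 and 205 CPM in PSA-NCAM+ cells. Replicate 1 was below all NPC libraries and replicates 2 and 3 above them, so that the change of 0.39 did not pass the test (FDR 0.321), whereas without replicate 1 it was 0.83 (FDR 0.000607). Elavl4, an RNA binding protein of neurons, went from 4.93, 7.52 and 6.19 CPM to 7.39, 16.9 and 24.7 CPM (1.41 ± 0.26). Nhlh1 (chr1:172052292-172057573), a factor of newborn neurons, was at 0.893, 1.07 and 1.48 CPM and then at 2.41, 6.86 and 13.2 CPM, with every purified library above every NPC library (2.74 ± 0.39, FDR 1.85e-05). Mtap2, the dendritic microtubule protein, rose by 1.36 with no overlap. Rbfox3, a marker of mature neurons, was at 0.388 to 1.06 CPM in the 6 libraries, with a change of 0.05 (FDR 0.907). Dll1, a Notch ligand of cells entering neurogenesis, was at 24.9 CPM in replicate 1, below NPCs at 40.5, 44.3 and 46.9 CPM, and at 63.5 and 60.2 CPM in replicates 2 and 3. It did not pass the test with replicate 1 (0.18, FDR 0.551) and did without (0.52, FDR 0.00296).

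**Figure D4:**
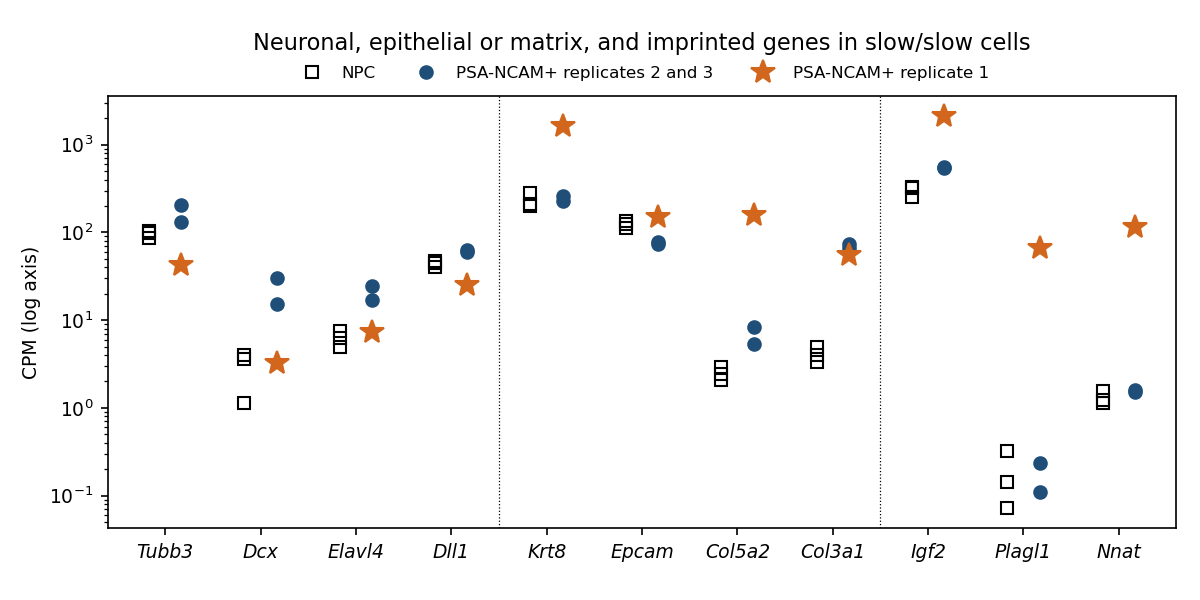
CPM on a log axis of 4 neuronal genes, 4 epithelial or matrix genes and 3 imprinted genes in slow/slow NPCs (open squares) and PSA-NCAM+ cells (star, replicate 1; circles, replicates 2 and 3). Tubb3 lay at 42.8 CPM in replicate 1, below the NPCs, and at 131 and 205 CPM in replicates 2 and 3, while Krt8 lay at 1625 CPM in replicate 1 and at 260 and 226 CPM in the others.

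Of 23 synapse genes 13 rose and 0 fell in the model of all libraries, but only 3 rose in the 6-library fit, a share near that of all genes. Snap25, a vesicle fusion protein, was at 0.828, 0.764 and 1.13 CPM in NPCs and at 1.08, 2.84 and 3.97 CPM in PSA-NCAM+ cells (1.59 ± 0.32), and replicate 1 was within the NPC range. Syt1, the calcium sensor of release, was highest in replicate 1 at 20 CPM, with 4.76 and 5.32 CPM in the others, and its rise of 1.52 lost the call without replicate 1 (0.58, FDR 0.0796). Among 21 genes that mark neuronal subtypes 10 rose and 1 fell, and 2 rose in the 6-library fit, again near the share of all genes. Slc17a6, the vesicular glutamate transporter, went from 0.104, 0.191 and 0.271 CPM to 0.551, 0.672 and 0.917 CPM (2.05 ± 0.36), while Gad1, which makes GABA, showed 1.35 CPM in replicate 1 and 0.224 and 0.273 CPM in the others (1.12, FDR 0.0971).

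Core pluripotency and formative epiblast genes fell more often than they rose. Of 13 core pluripotency genes 10 fell and 1 rose, with a median of -1.16, and 6 fell in the 6-library fit. Pou5f1 (chr17:35506018-35510772), which encodes OCT4, was at 791, 701 and 716 CPM in NPCs and at 155, 358 and 385 CPM in PSA-NCAM+ cells. All purified libraries were lower, replicate 1 by most, and the gene fell by 1.30 (SE 0.22, FDR 0.000145), a call lost in the 6-library fit with the replicate block (FDR 0.0606). Fgf4, a growth factor of pluripotent cells, was even among libraries, at 52.6, 52.5 and 51.9 CPM and then at 19.6, 22.2 and 20.6 CPM, and fell by 1.33 (FDR 4.1e-08). Among 13 naive pluripotency genes 7 fell and 2 rose with replicate 1, 11 fell and 2 rose without it, and 4 fell in the 6-library fit. Their summed level was 850 CPM in replicate 1, above NPCs at 665 to 739 CPM, and 608 and 552 CPM in replicates 2 and 3. Zfp42 fell by 1.04, whereas Klf4, which is also an early response gene in many cells, rose from 38.1, 32.9 and 30.8 CPM to 231, 152 and 116 CPM (2.29 ± 0.29, FDR 5.86e-06). Of 15 formative epiblast genes 10 fell and 1 rose, or 9 and 3 without replicate 1, and 7 fell in the 6-library fit. Otx2, a factor of epiblast and forebrain, went from 72.6, 54.3 and 45.3 CPM to 25.4, 17.9 and 19.7 CPM and fell by 1.45. Foxd3 went from 31.2, 25.9 and 22.9 CPM to 2.69, 6.69 and 8.73 CPM and fell by 2.13 (FDR 4.59e-06).

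The deepest list median on the falling side belonged to genes of 2-cell-like ESCs and germ cells. Of 10 tested, 9 fell and 0 rose, with a median of -2.02, and 7 fell in the 6-library fit, where 6.85% of all genes did. Stra8 (chr6:34920163-34939344), which is needed for entry into meiosis and responds to retinoic acid, was at 34.8, 30.9 and 33.7 CPM in NPCs and at 3.47, 5.08 and 6.94 CPM in PSA-NCAM+ cells. The 2 groups were far apart, and the gene fell by 2.67 (SE 0.35, FDR 8.81e-06). Zscan4d, a gene of the 2-cell stage, went from 2.03, 2.34 and 2.54 CPM to 0.347, 0.309 and 0.437 CPM and fell by 2.65. It belongs to a family of near-identical copies, so its reads may be shared with them. Dazl, a germ cell RNA binding protein, fell by 0.96.

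Patterning genes were mixed. Of 20 dorsoventral genes 9 rose and 2 fell, 13 and 4 without replicate 1, and 5 and 0 in the 6-library fit. The dorsal gene Pax3 went from 5.93, 6.75 and 8.01 CPM to 20.3, 25.9 and 26.1 CPM (1.81 ± 0.28), and Pax7 and the ventral gene Nkx6-1 rose by 1.70 and 1.50. Of 20 anterior genes 9 rose and 1 fell, and 6 and 1 in the 6-library fit. The Hox clusters, which pattern hindbrain and spinal cord, behaved differently in replicate 1. Of 25 Hox genes 0 rose and 4 fell with replicate 1, while 5 rose and 4 fell without, and the list medians from the NPC mean were -0.97, -0.17 and 0.04 in the 3 replicates. Hoxb8 was at 2.15, 3.32 and 3.89 CPM in NPCs, at 0.347 CPM in replicate 1 and at 7.19 and 10.7 CPM in replicates 2 and 3, with a change of 0.98 (FDR 0.177) and, without replicate 1, of 1.56 (FDR 5.42e-05). Of 17 retinoic acid genes 10 rose and 2 fell, 9 and 4 without replicate 1, and 4 and 2 in the 6-library fit. Crabp2, a retinoic acid binding protein, rose by 0.73, and Rarb, a receptor and target gene, rose by 0.87 with replicate 1 only, since without it the change was 0.35 (FDR 0.089). Exons of Rarb overlap Top2b on the other strand.

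Cell cycle genes had list medians near 0 in replicates 2 and 3. Of 23 DNA replication and mitosis genes 7 fell and 1 rose, but 2 fell and 3 rose without replicate 1, and the list medians from the NPC mean were -0.85, -0.04 and -0.03. Mcm2, a subunit of the replicative helicase, was at 541, 516 and 512 CPM in NPCs and at 248, 510 and 513 CPM in PSA-NCAM+ cells, and did not pass the test (-0.30, FDR 0.188). Of 14 p53 targets 9 rose and 2 fell, and without replicate 1 6 rose and 0 fell. Cdkn1a, the p21 cell cycle inhibitor, went from 32.2, 26.4 and 32.8 CPM to 131, 53 and 57.4 CPM (1.40 ± 0.22, FDR 6.71e-05) and still rose without replicate 1 (0.88), but lost the call in the 6-library fit with the replicate block (FDR 0.059). Of 18 cholesterol synthesis genes 9 fell and 1 rose, with a small median of -0.30, and 3 fell in the 6-library fit. Glycolytic and hypoxia genes, with 4 of 17 lower and 1 higher, and heat shock and unfolded protein genes, with 4 of 15 lower and 2 higher, had shares of falls near the 19.8% of all genes.

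Genes of the transcription machinery itself were nearly level. Of 27 RNAPII subunits and elongation factors 7 fell and 1 rose, with a median of -0.18, or -0.01 without replicate 1, and 1 fell in the 6-library fit. Polr2a, which carries the mutation, was at 380, 364 and 380 CPM in NPCs and at 195, 394 and 349 CPM in PSA-NCAM+ cells. The change did not pass the test (-0.26, FDR 0.205), and without replicate 1 it was 0.01 (FDR 0.956). Splicing regulators rose in 12 of 25 cases with 1 lower, and 5 rose in the 6-library fit. Srrm4, the regulator of neuronal microexons, went from 3.4, 4.18 and 5.03 CPM to 6.72, 11.3 and 14.5 CPM (1.38 ± 0.26). Ptbp2, a neuronal splicing repressor, rose by 0.35 and Rbfox2 by 0.37, both without overlap, and Rbfox1 by 2.42 from 0.119 to 0.142 CPM in NPCs. Mbnl2 rose by 1.26 with replicate 1, in which it was at 143 CPM against 49.6 and 34.7 CPM in the others and 30.6 to 32.2 CPM in NPCs, and lost the call without it (0.44, FDR 0.144).

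Markers of other cell types moved with the stage. Rises of mesoderm, matrix and neural crest genes were about as many without replicate 1, though their list medians were highest in it. Rises of epithelial and trophoblast genes rested mainly on replicate 1. Of 19 mesoderm and mesenchyme genes 14 rose and 2 fell, 13 and 3 without replicate 1, and 6 and 0 in the 6-library fit. Their summed level was 269 to 377 CPM in NPCs, 2127 CPM in replicate 1, and 1149 and 1055 CPM in replicates 2 and 3. Acta2, smooth muscle actin, went from 94.7, 63.3 and 89.4 CPM to 553, 402 and 358 CPM (2.41 ± 0.19, FDR 2.57e-08). Col3a1 (chr1:45311538-45349706), a fibrillar collagen of mesenchyme, went from 4.04, 3.36 and 4.9 CPM to 54.7, 73.5 and 65.6 CPM, with replicate 1 the lowest of the purified libraries (3.98 ± 0.18, FDR 7.83e-12). Of 20 collagen and matrix genes 9 rose and 1 fell, or 9 and 3 without replicate 1, and 6 and 0 in the 6-library fit. Yet the medians from the NPC mean were 1.49, -0.04 and 0.08 in the 3 replicates. Of 10 neural crest genes 4 rose and 1 fell, or 4 and 3 without replicate 1, and 3 and 1 in the 6-library fit.

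Epithelial genes rose mainly with replicate 1 in the model. Of 15 genes 6 rose and 0 fell with it, and 2 rose and 5 fell without, when 18.8% of all genes fell. In the 6-library fit 0 rose and 0 fell. Their summed level was 1120 to 1421 CPM in NPCs, 5468 CPM in replicate 1, and 1034 and 927 CPM in replicates 2 and 3. Krt8, a keratin of simple epithelia, was at 281, 202 and 213 CPM in NPCs, at 1625 CPM in replicate 1, and at 260 and 226 CPM in replicates 2 and 3. Its change was 1.60 (FDR 0.0137) with replicate 1 and 0.09 (FDR 0.809) without. Epcam, an epithelial adhesion molecule, was at 149 CPM in replicate 1 and at 73.7 and 77.5 CPM in the others, from 112 to 136 CPM in NPCs, and fell by 0.70 without replicate 1 (FDR 0.00022). Among 9 trophoblast genes 3 rose with replicate 1, 1 rose and 1 fell without it, and 1 rose in the 6-library fit. Their sum was 263 CPM in replicate 1 against 47.8 to 57.1 CPM in the other 5 libraries. Of 14 endoderm genes 6 fell and 1 rose with replicate 1, 10 and 1 without, and 4 and 1 in the 6-library fit. Of 12 astrocyte and oligodendrocyte genes 2 rose and 2 fell with replicate 1, 1 and 4 without, and 1 and 0 in the 6-library fit. Of 11 blood, vessel and microglia genes 6 had enough counts to be tested. Of these 1 rose and 4 fell with replicate 1, 0 and 3 without, and 0 and 1 in the 6-library fit. The part of these markers in the other results was not tested.

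Imprinted genes rose in 12 of 16 cases with 2 lower, most steeply in replicate 1, and 5 rose in the 6-library fit. Igf2, a fetal growth factor, was at 332, 256 and 317 CPM in NPCs, at 2141 CPM in replicate 1 and at 559 and 535 CPM in replicates 2 and 3, so all purified libraries were higher (1.84 ± 0.36, and 0.88 without replicate 1). Its exons overlap Gm49394. Plagl1, a zinc finger growth regulator, was at 66.3 CPM in replicate 1 and at 0.235 and 0.109 CPM in the others, and Nnat, neuronatin, at 116 CPM against 1.6 and 1.51 CPM. NPC levels were 0.0716 to 0.32 CPM for Plagl1 and 1.13 to 1.55 CPM for Nnat. Mest was at 268 CPM in replicate 1 and at 6.48 and 7.84 CPM in the others, and its exons overlap Copg2. WT replicate 1 also held Plagl1 RNA, at 27.5 CPM, with 0.253 and 0.424 CPM in WT replicates 2 and 3.

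Genes with the largest rises were, besides the immediate early genes Fosb, Egr3, Fos, Egr4, Npas4 and Ptgs2, those of mesenchyme and matrix. Col8a1, a short chain collagen, rose by 4.86, and Osr2, a zinc finger factor of limb and palate, went from 0.311, 0.119 and 0.345 CPM to 12.4, 8.25 and 5.01 CPM, and both held in the 6-library fit. Postn, a matrix protein (6.23), Cav1 (5.06), Mest (4.82) and Col5a2 (4.50) were among them too, but the 6-library fit called none of the 4, and without replicate 1 the rises were 3.01, 2.13, 1.14 and 1.47. Col5a2, a fibrillar collagen, was at 158 CPM in replicate 1 and at 8.43 and 5.31 CPM in the others, from 2.1 to 2.92 CPM in NPCs, and Cav1, the coat protein of caveolae, at 30.9 CPM against 1.56 and 1.33 CPM. The largest falls were smaller. After Stra8 came Tcstv3, a 2-cell-stage gene with close copies, which fell by 2.41, and Ttn, the giant muscle protein titin, which went from 32.2, 34.4 and 31.9 CPM to 1.74, 10.2 and 6.9 CPM and fell by 2.36. Pdzd3, Tmc5, Dnmt3l, Foxd3, Dcdc2c, Tcf15, Fam25c, Accsl and Pla2g10 followed, with falls between 2.04 and 2.35. Dnmt3l, the cofactor of de novo DNA methyltransferases, was at 204, 169 and 180 CPM and then at 16.6, 52 and 51.6 CPM, and its exons overlap Aire.

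Genes that set replicate 1 apart from replicates 2 and 3 can be read from both ends of the ratio. Above them most were Plagl1, Ddx3y, Nnat, Mest, Scel, Eif2s3y, Msln and Csf1r. Scel, an envelope protein of stratified epithelium, was at 36.5 CPM against 0.576 and 0.338 CPM, Msln, mesothelin, at 28.2 CPM against 0.512 and 0.448 CPM, and Csf1r, the macrophage growth factor receptor, at 26.5 CPM against 0.661 and 0.611 CPM. Csf1r shares exonic sequence with Hmgxb3 on the other strand. Below them most were Gbx2, Pim2, Tex13, Wnt8a, Hoxb8, Hes3, Epha3 and Fabp7. Pim2, a serine/threonine kinase, was at 26.1 CPM in replicate 1 and at 386 and 355 CPM in replicates 2 and 3, with 438 to 464 CPM in slow/slow NPCs and 22.3 to 24.7 CPM in WT PSA-NCAM+ cells. Wnt8a, a posterior Wnt ligand, was at 5.02 CPM against 71.5 and 68.2 CPM, with 1.39 to 4.96 CPM in WT PSA-NCAM+ cells. For both genes replicate 1 was near the WT level. Its distance from replicates 2 and 3 follows from how the genes were picked. The other genes named as lowest were not set against WT levels here.

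In WT cells 6862 of the same 16627 genes changed between the stages (41.3%), 3624 higher (21.8%) and 3238 lower (19.5%). Both genotypes called 3573 genes in the same direction, 50.8% of the slow/slow set and 52.1% of the WT set, and 272 in opposite directions. A test of the difference itself called 2421 genes (14.6%), of which 1250 had the higher change in slow/slow cells (7.52%) and 1171 the lower (7.04%). Without replicate 1 of the slow/slow PSA-NCAM+ cells the count was 4248 (25.3%).

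In WT cells 18 of the 19 immediate early genes rose. The change differed between genotypes in 4 of them, beside 14.6% of all genes, and 3 of the 4 rose more in slow/slow cells. Nr4a1 rose by 1.60 in WT, from 63.4, 69.9 and 64.4 CPM to 272, 183 and 142 CPM, and by 1.72 more in slow/slow cells (FDR 0.000454), and Npas4 rose by 2.59 more (FDR 0.0257). Id4 rose in slow/slow cells while WT libraries went from 7.38, 6.41 and 6.43 CPM to 12, 8.81 and 5.9 CPM, a difference of 2.53 (FDR 1.28e-05). Hes5 was at 0.27 to 0.438 CPM in the 6 WT libraries of these stages, and its change differed by 3.00 (FDR 0.000139). Among 20 genes of post-mitotic neurons 5 had the higher change in slow/slow cells and 1 the lower. Examples with the higher change were Elavl4 by 1.32 (FDR 0.041), Stmn2 by 0.96 (FDR 0.00576) and Nhlh1 by 2.32 (FDR 0.0316). Of these 20 genes 6 rose in WT cells and 2 fell, with a median of 0.06 against 0.69 in slow/slow cells.

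On the other side were Foxd3, the 2-cell and germ cell genes and the trophoblast genes. Foxd3 rose in WT from 10.1, 9.98 and 9.96 CPM to 18, 21.3 and 13.9 CPM and fell in slow/slow cells, a difference of -2.95 (FDR 4.95e-05). Of the 10 genes of 2-cell-like and germ cells, 6 had a lower change in slow/slow cells, among them Zscan4d (-2.79, FDR 0.000543). Plac1, a placental gene, rose in WT from 2.54, 1.83 and 1.98 CPM to 40.1, 10.7 and 11.9 CPM, and was at 3.58, 3.22 and 2.91 CPM and then at 2.86, 2.19 and 3.45 CPM in slow/slow cells (difference -3.51, FDR 0.000283). Of 9 trophoblast genes 7 rose in WT, with a median of 1.82, and 3 had a lower change in slow/slow cells. Sema3a, a repellent guidance cue, rose in both genotypes, by 1.73 in slow/slow and 3.97 in WT cells (difference -2.25, FDR 0.00161).

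Long genes rose more often than short ones. Genes were sorted by the span from start to end in GENCODE (GRCm38), which was known for 16312 of the genes tested. Of 4294 genes under 10 kb, 14.8% rose and 26.9% fell, and of 530 genes over 300 kb, 51.3% rose and 4.3% fell. The classes between followed in order, with 17.8%, 25.6% and 41.1% higher. In WT cells the shares that rose went from 18.9% under 10 kb to 38.5% over 300 kb. Median changes in slow/slow cells ran from -0.147 in the shortest class to 0.667 in the longest. Gene span goes along with function and level, and their part in this order was not tested.

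**Figure D5:**
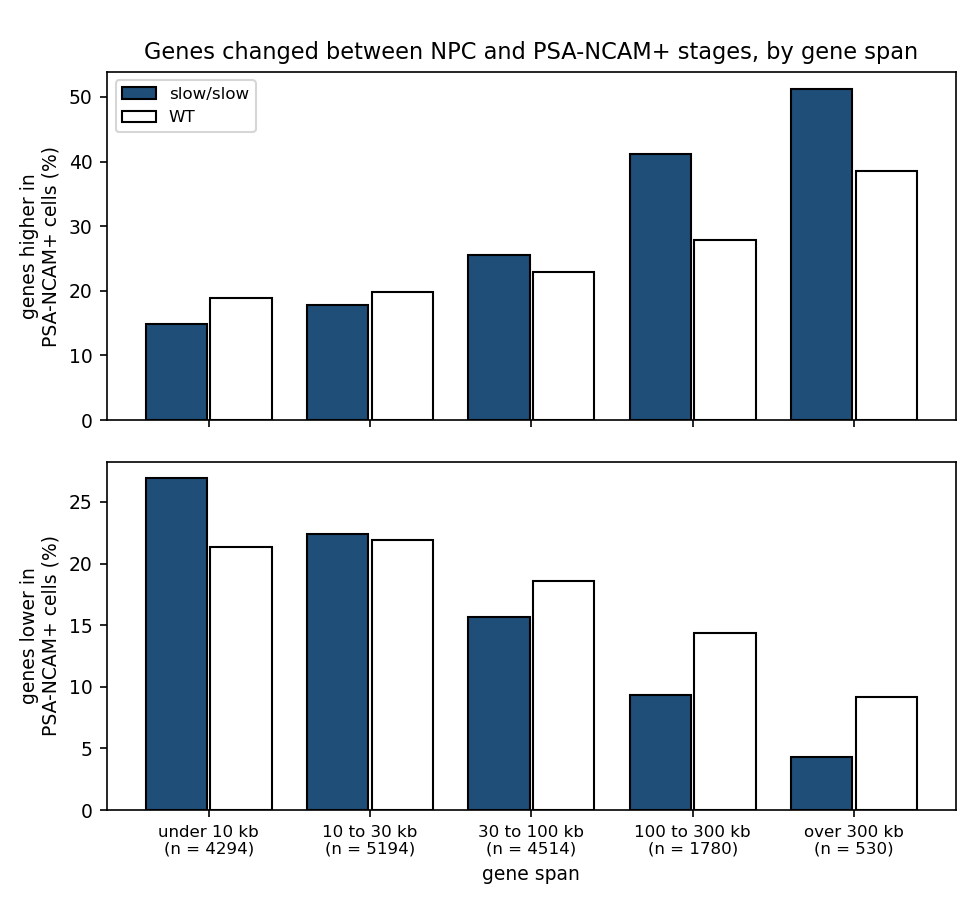
Percent of genes tested that were higher (upper panel) or lower (lower panel) in PSA-NCAM+ cells than in NPCs at FDR under 0.05, by gene span in kb, for slow/slow cells (filled bars) and WT cells (open bars). In slow/slow cells the share that rose went from 14.8% under 10 kb to 51.3% over 300 kb.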

How the data were processed

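Libraries were made from poly(A)+ RNA with a stranded TruSeq kit and sequenced as 75-base paired-end reads. The authors mapped reads to the mm9 genome and deposited raw counts per gene from vast-tools. Whether counting used strand is not given in the sources used here. They also deposited, per the file headers, RPKM values, and log2 ratios and FDR values (adjusted p-values) of their own comparisons, which were not used here.

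Counts of 21553 genes in 24 libraries (32974432 to 104466886 per library) entered R 4.3.3 and edgeR 4.0.16. A quasi-likelihood model of 8 groups, after filterByExpr and TMM scaling, tested 16627 genes with 16 residual degrees of freedom, and Benjamini-Hochberg adjustment ran over all of them. DESeq2 1.42.0 and limma 3.58.1 gave alternatives. The fit was also run on simulated counts with known changes, a common spread for all genes and no deviating library. That run cannot show how the model handles a group with a library like replicate 1. Slow/slow NPC and PSA-NCAM+ libraries of the same number had correlated deviations from their group means (r = 0.37, 0.32 and 0.19 for numbers 1, 2 and 3). Unlike numbers correlated nearly as well as number 3, with 0.16 for NPC 2 and PSA-NCAM+ 3 and 0.14 for NPC 3 and PSA-NCAM+ 2. These values therefore do not show that numbers 2 and 3 are paired. Fits with the replicate number as a block were run as alternatives. In WT the values for the same number were -0.09, -0.14 and -0.03.

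Genes named were members of 34 lists, the 12 largest rises and 12 largest falls (FDR under 0.05, groups not overlapping, at least 5 CPM in the higher group), the 8 genes highest and the 8 lowest in replicate 1 against replicates 2 and 3, and the 8 with the largest genotype difference each way. Members, lists and tests were chosen with earlier results of these data known. Some genes of the lists are not reported here. Coordinates and spans came from GENCODE vM21 (GRCm38), matched by Ensembl identifier, and no mm9 coordinate was used. Counts carry sampling error only within a library, and deeper libraries have less of it.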

Additional observations from a re-analysis of the deposited data

Results flagged for a closer look

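The stage change differed between slow/slow and WT cells in 2421 genes by the interaction test in edgeR. The 8 genes with the largest difference on each side are given here with their values, without weighing what lies behind them.

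On the side where slow/slow cells had the higher change, 4 of the 8 genes rested on replicate 1 of the slow/slow PSA-NCAM+ cells. Uty (difference 7.08, FDR 0.0231), Eif2s3y (4.29, FDR 0.0423), Msln (4.21, FDR 0.0393) and Mest (4.17, FDR 0.0306) had differences of 1.28, -0.22, -0.10 and 0.48 without that library, none of which passed the test. Msln was at 28.2 CPM in replicate 1 and at 0.345 to 0.597 CPM in the other 5 slow/slow libraries of the 2 stages. With the replicate number as a block in the model of all libraries, Eif2s3y, Msln and Mest also lost the call (FDR 0.0629, 0.0621 and 0.0654).

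The other 4 kept the call without replicate 1. Ppm1n, a protein phosphatase gene, was at 4.99, 4.39 and 4.56 CPM in slow/slow NPCs and at 51.2, 33.1 and 15.8 CPM in PSA-NCAM+ cells, whereas WT libraries went from 4.14, 3.09 and 3.87 CPM to 1.78, 1.75 and 1.51 CPM, so the genotypes moved in opposite directions (difference 3.97, FDR 6.9e-06). Sez6, a neuronal membrane protein, rose in slow/slow cells from 2.13, 2.55 and 3.01 CPM to 4.41, 6.74 and 7.26 CPM and fell in WT from 27, 30.4 and 27.2 CPM to 6.11, 12.5 and 12.8 CPM (difference 2.71, FDR 2.33e-05). Hes5 differed by 3.00 (FDR 0.000139) and Npas4 by 2.59 (FDR 0.0257). Npas4 lost the call when only the 12 libraries of the 2 stages were fitted (FDR 0.11).

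On the side where slow/slow cells had the lower change, all 8 genes kept the call without replicate 1. They were Ldoc1 (-4.07, FDR 0.00197), Cdh5 (-3.52, FDR 8.44e-05), Plac1 (-3.51, FDR 0.000283), Nkx1-2 (-3.46, FDR 0.0163), Gpr50 (-3.43, FDR 0.000299), Pparg (-3.24, FDR 0.0109), Zfp36l3 (-3.08, FDR 0.000415) and Slco4a1 (-3.03, FDR 0.00775). Zfp36l3, a placental RNA binding protein, was at 7.63, 7.83 and 7.78 CPM in WT NPCs and at 142, 31.1 and 41.9 CPM in WT PSA-NCAM+ cells, against 4.76, 4.75 and 3.67 CPM and then 5.84, 4.15 and 4.48 CPM in slow/slow cells. Ldoc1 was at 61.6, 8.38 and 10.1 CPM in WT PSA-NCAM+ cells, and Pparg, the adipogenic nuclear receptor, at 24.9, 3.19 and 4.5 CPM. In these 3 genes WT replicate 1 was the highest of its group. Cdh5, the cadherin of endothelium, rose in WT by 2.67 and fell in slow/slow cells by 0.85, and the latter call was lost without slow/slow replicate 1 (FDR 0.161).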

How the results depend on the processing

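With the model of all 24 libraries, the count of genes changed between the stages in slow/slow cells stayed within 1.5 times of 7033 under DESeq2, other scalings, voom weights, no filter and the replicate block. Leaving out 1 library gave 5420 to 7684 genes in slow/slow cells, 5401 to 6549 in WT and 1690 to 4248 for the difference. In the latter the genes with the lower change numbered 739 to 2093 and those with the higher change 951 to 2155, the highest counts coming without replicate 1 of the slow/slow PSA-NCAM+ cells, while 739 came without WT NPC replicate 3 and 759 without slow/slow NPC replicate 1. A change of at least 2-fold left 2402 genes in slow/slow cells (1405 higher, 997 lower), 1971 in WT (1415 and 556) and 933 for the difference (360 and 573).

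Fits of only the libraries compared called 2525 genes in slow/slow cells (1484 higher, 1041 lower) and 668 for the difference (384 and 284). The same fits with a replicate block called 1121 (755 and 366) in slow/slow cells, 3951 (2130 and 1821) in WT and 477 (274 and 203) for the difference. Sample quality weights, which gave replicate 1 a weight of 0.042, called 4366 genes for the difference (2212 and 2154). Upper-quartile scaling shifted the median of all genes by -0.06.

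Of 96 named genes called in slow/slow cells, 9 lost the call without replicate 1, 33 in the 6-library fit, 38 in that fit with the replicate block and 1 with the block in the model of all libraries. Among the 38, Accsl (FDR 0.0635), Rbfox2 (FDR 0.0662) and Sema3a (FDR 0.0541) had kept the call in the 6-library fit without the block, as had Bmp4, Cdkn1a and Pou5f1. Csf1r (-0.08, and -0.09 in the 5-library fit, which was added after the data had been seen), Ddx3y (-0.48 and -0.50), Eif2s3y (-0.11 and -0.14) and Scel (-0.02 and -0.04) turned sign without replicate 1, as did Msln in the 5-library fit (-0.01). With another library left out, the first 4 of these reached 4.35, 6.23, 5.01 and 5.32. With quality weights Ddx3y was at -0.34 and Eif2s3y at -0.05. Genotype differences of Eif2s3y (-0.22, and -0.02 with weights) and Msln (-0.10) also turned, their highest values with another library left out being 4.91 and 4.81. List medians that moved by more than the spread of the replicate medians without replicate 1 were naive pluripotency (-0.94), dorsoventral (0.87), anterior (0.48), retinoic acid (0.35), Wnt (0.78), neural crest (0.31), astrocyte and oligodendrocyte (-0.35), 2-cell and germ cell (-1.87), immediate early (2.12) and heat shock (-0.19), and the epithelial (-0.50) and trophoblast (-0.19) medians turned sign. In the 6-library fit the astrocyte median was -0.22 and that of blood genes -0.85, and with upper-quartile scaling the latter was -1.03. The causes were not tested.

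Replicates numbered 3 per group, and counts of low genes, such as Zscan4d in PSA-NCAM+ cells or Egr3 in NPCs, rest on few reads.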
